A study of Mus musculus with 3 samples.

Results

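The cells described here are T cells of mouse small intestinal crypts that carried RNA of *Cd8a*, the alpha chain of CD8, without RNA of *Cd8b1*, the CD8 beta chain, or of *Trdc*, the constant gene of the T cell receptor delta chain. A barcode was counted when it had at least 500 genes, at least 1000 unique molecular identifiers (UMIs, each standing for 1 captured RNA molecule) and at most 20% mitochondrial UMIs. It also needed at least 1 UMI of *Ptprc*, at least 1 of *Cd3d*, *Cd3e* or *Cd3g* and at least 1 of *Cd8a*, with 0 UMIs of *Cd8b1* and 0 of *Trdc*. This gave 500 Cd8a-only T cells of 5528 barcodes that passed the limits and 14387 barcodes in all. They were 47 cells of the KO library, 139 of the rescue library and 314 of the control library. The cells were selected on measured UMIs of these genes, so the levels of those genes are given as a description and were not tested.

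The study measured small intestinal crypts of adult C57BL/6 mice of 2 to 3 months with the 10x 3' droplet assay (version 3), which reads the RNA of single cells. Crypts were dissociated with 3x TrypLE (spelled TripLE in the labels) for 1 h, and 4000 to 5000 cells per library were taken. Each genotype had 1 library, and the number and sex of the animals behind each are not given. All mice carried Olfm4-IRES-eGFPCreERT2, a tamoxifen-dependent Cre under *Olfm4*, a gene of crypt base stem cells. The KO was CDC42flox/flox. The rescue was CDC42flox/flox with Yapflox/flox and Tazflox/+. The control was CDC42+/flox and so carried a floxed allele too. The driver is an epithelial stem cell gene, so the T cells are not the cells in which the labelled alleles are meant to recombine. With 1 library per genotype no difference between genotypes was tested, and intervals are exact 95% intervals for counting error only.

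The lining of the small intestine holds many resident intraepithelial lymphocytes. Conventional CD8 T cells carry CD8 as a heterodimer of alpha and beta chains, together with Thy1, CD5, CD2 and CD28. In mice, a large set of resident cells carries only CD8 alpha homodimers, with either an alpha-beta or a gamma-delta receptor, high granzyme levels, receptors of natural killer (NK) type and the signalling adaptor FCER1G, and lacks much of the conventional surface set. Receptor chains other than delta are therefore given below for the Cd8a-only T cells.

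*Gzma* and *Gzmb*, which encode the granule proteases granzyme A and granzyme B, are among the markers given with the rule, and both were higher in Cd8a-only T cells than in T cells with *Cd8b1*. The 250 bases before the RefSeq start of each are shown because the results turn on this pair. *Gzma* lies on chromosome 13 (113093825 to 113100981, minus strand) and *Gzmb* on chromosome 14 (56258838 to 56262260, minus strand), with gene ends from GENCODE, whose *Gzmb* start differs from that of RefSeq. The windows are chr13:113100982-113101231 and chr14:56262335-56262584, both read on the minus strand from RefSeq, build GRCm38.p6. Capitals mark the motif TGTGGTT or its reverse complement AACCACA, the core bound by RUNX factors, searched on both strands.
Gzma: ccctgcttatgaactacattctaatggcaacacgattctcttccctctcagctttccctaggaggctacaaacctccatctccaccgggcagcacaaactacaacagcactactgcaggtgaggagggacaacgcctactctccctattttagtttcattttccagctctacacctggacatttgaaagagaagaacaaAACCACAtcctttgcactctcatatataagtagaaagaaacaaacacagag
Gzmb: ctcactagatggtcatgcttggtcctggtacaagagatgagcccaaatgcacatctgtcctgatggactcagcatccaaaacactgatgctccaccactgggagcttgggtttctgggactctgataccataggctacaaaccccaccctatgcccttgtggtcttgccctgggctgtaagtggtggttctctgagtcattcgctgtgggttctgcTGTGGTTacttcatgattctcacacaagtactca
Each window held 1 match, and 4.40% of 32851 promoter windows of the same length held at least 1. The windows of *Fcer1g*, *Cd8a*, *Cd5* and *Il7r*, searched in the same way and not shown, held none. *Fcer1g* was also higher in Cd8a-only T cells than in T cells with *Cd8b1*, so the match was not shared by all such genes. The T-box motif AGGTGTGA or TCACACCT, searched in the same way, was in neither window and in 1.12% of all. The motifs do not overlap each other, and a match is a description of these letters only.

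The libraries differed before any T cell was picked out. They held 85525811 UMIs (KO), 64355665 (rescue) and 58433966 (control), with a median mitochondrial share per barcode of 22.7%, 14.2% and 52.3% in that order. Among Cd8a-only T cells the medians were close, at 4381, 5195 and 4938 UMIs and at 9.72%, 8.09% and 6.95% mitochondrial UMIs. No barcode of a Cd8a-only T cell occurred in another library's set. A few deep barcodes, above 15000 UMIs, weighed on the sums. They were 1 in KO, 3 in rescue and 3 in control, and held 17.1%, 33.9% and 13.2% of all UMIs of the Cd8a-only T cells. Values over cells of at most 15000 UMIs, a limit chosen after seeing the data, are therefore given beside many of the sums. They are not given for all. Where a sum stands alone, the deep barcodes may still have moved it, in some cases by over 1.5 times. An *Epcam* UMI was found in 57.4% of KO, 47.5% of rescue and 65.0% of control cells. The summed level of 17 epithelial markers was 8776, 5445 and 27828 CPM (the UMIs of a gene scaled by all UMIs of the cells summed), and 2894, 2180 and 2640 CPM without the deep barcodes. The part of this epithelial RNA in the results was not tested.

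Sex-linked RNA set the libraries apart. Among Cd8a-only T cells, *Xist*, the RNA that silences an X chromosome in female cells, was present without Y-linked RNA (*Ddx3y*, *Eif2s3y*, *Kdm5d*, *Uty*) in 43 of 47 KO cells, 113 of 139 rescue cells and 0 of 314 control cells. Y-linked RNA without *Xist* was present in 0 KO cells, 17 rescue cells and 261 control cells. The genotype labels and these sex-linked transcripts therefore cannot be told apart between KO and control, and the rescue library held cells of both kinds. The part of sex in any difference between libraries was not tested, and the rescue values are split by these transcripts in the closing observations.

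Cd8a-only T cells made up 22.4% (16.9 to 28.6) of Cd3-positive barcodes in KO, 17.7% (15.1 to 20.5) in rescue and 33.4% (30.4 to 36.6) in control. A count of 0 UMIs of *Cd8b1* and *Trdc* is easier to reach in a shallow barcode, so every barcode was also thinned to 1000 UMIs. The shares were then 27.7% (19.9 to 36.7, 33 of 119), 22.4% (18.9 to 26.4, 112 of 499) and 33.9% (30.2 to 37.8, 210 of 619). The interval of rescue lay below that of control at both depths. The interval of KO lay below that of control at full depth and overlapped it after thinning. Of all kept barcodes, which are mostly epithelial in KO, Cd8a-only T cells made up 2.31% in KO, 7.33% in rescue and 19.7% in control. Cells with *Trdc* but no *Cd8b1* (Trdc+ cells) were the largest class, with 97, 335 and 422 cells, and cells with *Cd8b1* but no *Trdc* (Cd8b1+ cells) numbered 23, 144 and 67. Only 13 cells in all had both. Classes were called again on the thinned counts, which left 29, 104 and 91 Trdc+ cells and 7, 31 and 16 Cd8b1+ cells. Of Cd8a-positive barcodes in control, Cd8a-only T cells went from 38.8% to 66.0%. The thinned set thus takes in cells with *Trdc* or *Cd8b1* at full depth and is another mix of cells.

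**Figure D1:**
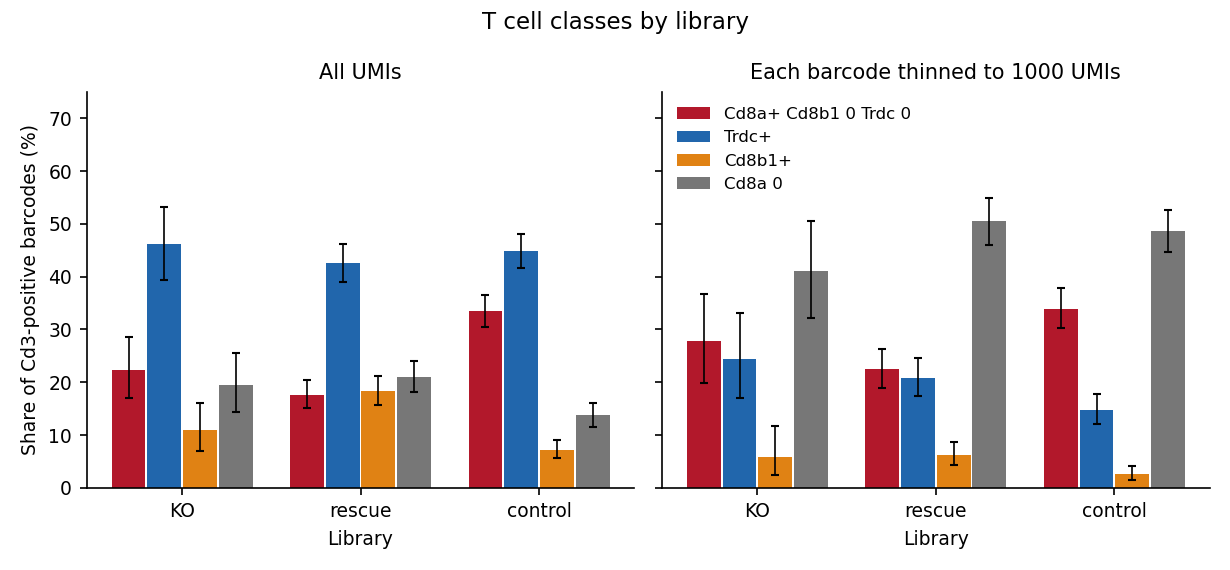
Share of Cd3-positive barcodes (y axis, %) held by 4 T cell classes in the KO, rescue and control libraries, with all UMIs (left) and with each barcode thinned to 1000 UMIs (right). Bars are shares and error bars exact 95% binomial intervals. Cd8a-only T cells (red) stood at 22.4%, 17.7% and 33.4% on the left.

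The genes given with the rule as markers were found in most Cd8a-only T cells. At 1000 UMIs a *Gzma* UMI was present in 74.5% of KO, 71.2% of rescue and 82.8% of control cells. In epithelial barcodes thinned alike, which should not make granzymes, the shares were 0.568%, 2.20% and 5.87%, from median depths of 39896, 43518 and 31130 UMIs before thinning. *Gzmb* was present in 70.2%, 64.7% and 68.8% of Cd8a-only T cells, against 0.189%, 0.857% and 2.31% of epithelial barcodes. *Fcer1g*, on chromosome 1 (171229572 to 171234365, minus strand), was present in 70.2%, 65.5% and 72.6%, against 0.694%, 1.22% and 1.96%. The markers came with the rule, so these shares are a description, and they set the cells apart from epithelial barcodes only. Trdc+ cells of KO, rescue and control held *Gzma* at 26848, 25876 and 28078 CPM and *Fcer1g* at 1834, 2332 and 2175 CPM. Cd8a-only T cells held 23225, 17573 and 23006 CPM and 1483, 1506 and 1640 CPM. The markers were thus shared with Trdc+ cells.

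Levels per cell spread widely. The median *Gzma* level was 24600 CPM in KO, 28805 in rescue and 26852 in control cells, with a highest cell of 64908, 92153 and 138207 CPM. No *Gzma* UMI was seen in 11 of 47, 31 of 139 and 46 of 314 cells, so each library held granzyme A-negative members beside the rest. The median *Gzmb* level was 3621, 1893 and 2002 CPM, and that of *Fcer1g* was 1582, 2181 and 1899 CPM. *Ccl5*, a chemokine of cytotoxic lymphocytes, had no UMI in 1, 3 and 10 cells, with medians of 14540, 26283 and 19964 CPM.

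**Figure D2:**
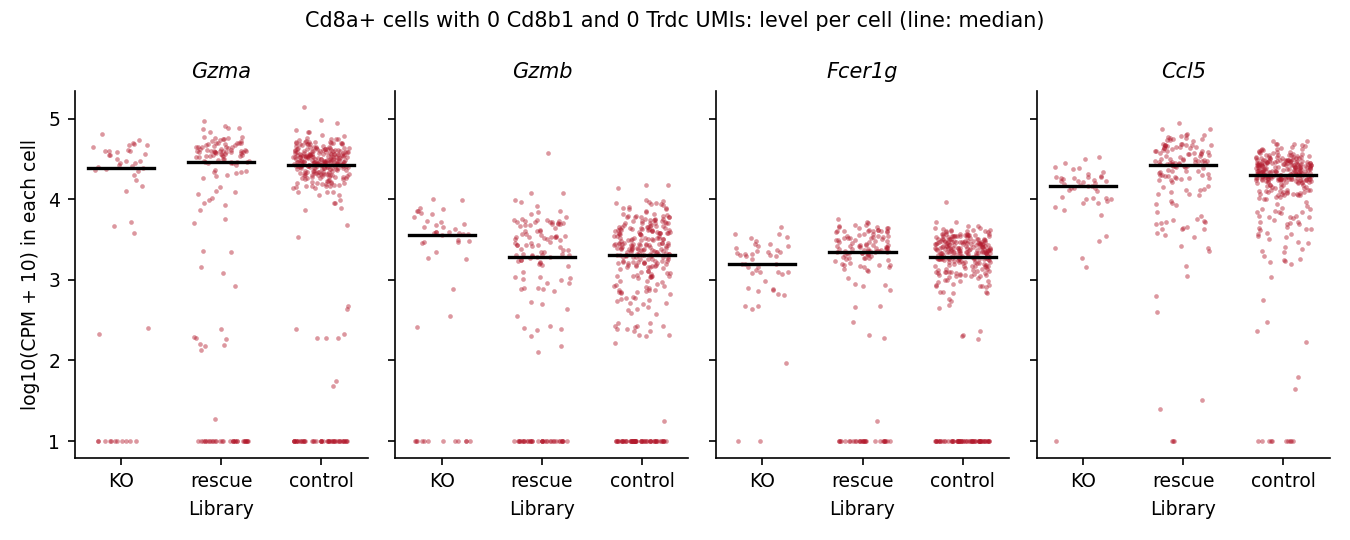
Level of *Gzma*, *Gzmb*, *Fcer1g* and *Ccl5* in each Cd8a-only T cell (y axis, log10 of CPM + 10) in KO, rescue and control. Each point is a cell and each line the median over cells. Cells at the bottom have no UMI of the gene, 11, 31 and 46 of them for *Gzma*.

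Values just inside and just outside the limits of the rule are given for cells of at most 15000 UMIs, since 1 or 2 deep barcodes fell in several of these small sets. *Gzma* stood at 9604 CPM in 4 KO cells, 14925 CPM in 20 rescue cells and 17338 CPM in 32 control cells with exactly 1 *Cd8a* UMI. With at least 2 *Cd8a* UMIs it stood at 28094, 28396 and 27152 CPM. With the deep barcodes the rescue and control values at exactly 1 *Cd8a* UMI were 3250 and 8942 CPM. Just outside, cells without *Cd8a*, *Cd8b1* or *Trdc* had 936 CPM (17 cells), 9629 CPM (70 cells) and 7601 CPM (34 cells), so *Gzma* was lower there than at 1 *Cd8a* UMI in each library. Cells excluded by exactly 1 *Trdc* UMI had 23182 CPM (7 cells), 45696 CPM (16 cells) and 31037 CPM (43 cells). Those excluded by exactly 1 *Cd8b1* UMI had 26445 CPM (5 cells), 9482 CPM (26 cells) and 18546 CPM (19 cells).

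The receptor genes of the Cd8a-only T cells included both alpha-beta and gamma constant chains. *Trac*, the alpha constant gene on chromosome 14 (54220521 to 54224206, plus strand), stood at 524 CPM in KO, 359 in rescue and 556 in control. *Trbc1* stood at 513, 603 and 769 CPM and *Trbc2* at 1242, 1184 and 938 CPM, both beta constant genes. The gamma constant gene *Tcrg-C1* stood at 129, 118 and 102 CPM, *Tcrg-C2* at 197, 201 and 69.3 CPM and *Tcrg-C4* at 233, 251 and 115 CPM. UMIs of alpha or beta and of gamma constant genes occurred together in 40 of 47, 128 of 139 and 217 of 314 cells. The other classes showed this too. It was seen in 18 of 23, 124 of 144 and 44 of 67 Cd8b1+ cells. In Trdc+ cells it was 91 of 97, 332 of 335 and 382 of 422. UMIs of alpha or beta constant genes alone were found in 7, 10 and 94 Cd8a-only T cells. The 3 gamma constant genes and the 2 beta constant genes are close copies, so UMIs may be split among them. *Tcrg-C2* was 2.85-fold (2.04 to 3.95) higher in KO than in control.

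Markers of other blood cell types were low. *Foxp3* of regulatory T cells, *Ncr1* of NK cells and *Cd79a*, *Ms4a1* and *Pax5* of B cells were at 0 in all 3 libraries. The summed level of 8 NK and innate lymphoid markers was 46.7 CPM in KO, 45.4 in rescue and 30.2 in control. That of 6 markers of CD4 or regulatory T cells was 71.8, 98.0 and 76.6 CPM. B cell markers summed to 28.7, 272 and 98.3 CPM, with *Cd74* as the highest in rescue and control, and the rescue sum was 94.7 CPM without the deep barcodes. Stromal markers summed to 3.59, 0 and 1.68 CPM.

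The gene targeted in the epithelium was not lower in these cells. *Cdc42*, which encodes a small GTPase of cell polarity and lies on chromosome 4 (137319696 to 137357720, minus strand), stood at 467 CPM (390 to 554) in KO, 430 CPM (392 to 471) in rescue and 404 CPM (375 to 435) in control Cd8a-only T cells. *Yap1* had 0, 14 and 10 UMIs and *Wwtr1*, the gene of TAZ, 2, 3 and 6 UMIs. In cells of at most 15000 UMIs *Yap1* had 0, 0 and 5 UMIs and *Wwtr1* none, so the rescue UMIs of *Yap1* and all UMIs of *Wwtr1* lay in deep barcodes. The deleted exons are not named in the labels, so a 3' count does not check recombination.

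Compared with Cd8b1+ cells of the same libraries, Cd8a-only T cells had more granzyme and NK-type receptor RNA and less RNA of the conventional T cell set. *Gzma* stood at 23225, 17573 and 23006 CPM in KO, rescue and control Cd8a-only T cells, against 7835, 5626 and 8171 CPM in Cd8b1+ cells, with no overlap. It rose by 1.51 on the log2 scale (SE 0.09, edgeR quasi-likelihood test, Benjamini-Hochberg adjusted p = 1.65e-06). *Gzmb* stood at 3142, 1757 and 2283 CPM, against 1469, 892 and 844 CPM. It rose by 1.11 (SE 0.13, edgeR adjusted p = 0.000425). *Gzma*, *Gzmb* and *Fcer1g* came with the rule as markers of these cells, so their p-values are not independent support. The 3 libraries are of 3 genotypes and served as blocks, so p measures how alike the class difference was across them. In rescue, Y-linked RNA was found in 13.7% of Cd8a-only T cells, 11.3% of Trdc+ cells and 45.8% of Cd8b1+ cells, so the classes of that library were unlike in this. The rise of *Gzma* also passed without rescue (edgeR adjusted p = 1.2e-08). In all, 98 of 7861 tested genes (1.25%) rose and 84 (1.07%) fell. Of the 98 that rose, 18 stood more than 2-fold higher in epithelial barcodes than in Cd8a-only T cells. Without the deep barcodes 221 (3.1%) rose and 196 (2.75%) fell of 7119. Between these fits 82 rising and 83 falling genes were shared.

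Of 15 NK-type receptors and adaptors tested, 6 rose and 1 fell, with a median log2 difference of 1.68 beside 0.00 over all genes. Without the deep barcodes 8 rose and 2 fell of 14. *Fcer1g*, the adaptor that can stand in for CD3 zeta, was at 1483, 1506 and 1640 CPM in Cd8a-only T cells, against 113, 166 and 723 CPM in Cd8b1+ cells (log2 2.33, SE 0.37, edgeR adjusted p = 0.00372). *Tyrobp*, the adaptor DAP12, was at 585, 1006 and 1042 CPM, against 49.5, 57.8 and 228 CPM (log2 3.04, SE 0.33, edgeR adjusted p = 0.000274). For both genes every Cd8a-only value lay above every Cd8b1+ value, and the Cd8b1+ cells of control were the highest of that class. *Klra5*, an NK-type lectin receptor, was at 259, 109 and 229 CPM, against 7.06, 1.28 and 12.8 CPM (log2 4.90, SE 0.45, edgeR adjusted p = 9.99e-05). *Klrd1*, the CD94 chain, rose by 1.68 (edgeR adjusted p = 0.00182), and *Klre1* and *Klrb1a* rose as well. *Klre1* lost its call without the KO library (edgeR adjusted p = 0.0786) and without the rescue library (0.119). *Cd226*, an activating receptor, fell by 1.99 (edgeR adjusted p = 0.00572), and its call was lost without the control library (0.0802).

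Of 15 T cell receptor signalling genes tested, 0 rose and 8 fell, among them *Cd2*, *Cd28*, *Cd5*, *Cd6*, *Ctla4*, *Lat* and *Thy1*, with a median of -0.93. *Cd6*, a coreceptor that restrains receptor signalling, was at 7.18, 31.8 and 5.59 CPM in Cd8a-only T cells, against 170, 284 and 131 CPM in Cd8b1+ cells (log2 -3.77, SE 0.28, edgeR adjusted p = 1.31e-05). *Thy1*, a surface glycoprotein of conventional T cells, was at 50.3, 47.2 and 11.2 CPM, against 254, 268 and 121 CPM (log2 -2.79, SE 0.36, edgeR adjusted p = 0.00066). *Lat*, the adaptor that links the receptor to its signalling cascade, was at 68.2, 121 and 81.0 CPM, against 431, 444 and 341 CPM (log2 -2.16, SE 0.20, edgeR adjusted p = 0.000111). Neither class overlapped the other for any of these 3 genes. Among the genes named, the calls of *Cd28* and *Ctla4* were lost without the control library (edgeR adjusted p = 0.0909 and 0.617).

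Genes of recirculating and naive T cells were lower too. Of 5 tested, 3 fell, with a median of -2.52, and all 5 fell over cells of at most 15000 UMIs. *Il7r*, the receptor of the survival cytokine IL-7, was at 7.18, 41.7 and 6.71 CPM in Cd8a-only T cells, against 268, 316 and 182 CPM in Cd8b1+ cells (log2 -3.74, SE 0.40, edgeR adjusted p = 0.00027). *Ccr7*, the chemokine receptor for lymph node entry, had 0 or 1 UMI per library of Cd8a-only T cells at 3.59, 0 and 0.559 CPM, against 21.2, 10.3 and 51.3 CPM (edgeR adjusted p = 0.00534). It was too low to be tested without the control library. *Satb1*, a chromatin organiser, fell by 2.52 (edgeR adjusted p = 0.00027). In the residency and homing list 2 of 20 tested genes rose and 4 fell, or 4 and 4 without the deep barcodes. *Cd7* rose by 1.52 and *Rgs2* by 0.63, while *Ccr9*, *Cxcr3*, *Itga4* and *Itgal* fell. Calls of *Rgs2*, *Ccr9* and *Cxcr3* were lost without rescue (edgeR adjusted p = 0.116, 0.467 and 0.107) and without control (0.433, 0.231 and 0.0943). Without rescue those of *Itga4* and *Itgal* were lost as well (0.0662 and 0.0816), and that of *Rgs2* also without KO (0.0673). *Itgae*, the integrin alpha E that binds E-cadherin, did not pass.

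Among the transcription factors tested, *Ikzf2*, which encodes Helios, rose by 2.40 (edgeR adjusted p = 0.000329) at 575, 745 and 1287 CPM in Cd8a-only T cells, against 28.3, 123 and 354 CPM in Cd8b1+ cells. *Bcl11b* fell by 1.93 (edgeR adjusted p = 0.00027), and *Rora* fell by 1.80 (0.00126), a call lost without control (0.0918). Both are regulators of T cell identity and function. Of 20 activation and checkpoint genes *Lag3*, *Tnfrsf9* and *Entpd1* rose, and *Cish* and *Icos* fell, or 6 rose and 4 fell of 19 without the deep barcodes. *Lag3*, an inhibitory receptor, was at 140, 136 and 253 CPM, against 42.4, 25.7 and 82.1 CPM (log2 1.88, edgeR adjusted p = 0.000733). The call of *Entpd1* was lost without any 1 library (edgeR adjusted p = 0.121, 0.21 and 0.19 without KO, rescue and control), and that of *Cish* without rescue (0.174). Of 22 immediate early genes 0 rose and 6 fell, among them *Fos* by 1.22 (edgeR adjusted p = 0.0124), a call lost without KO (0.0972), and 11 fell without the deep barcodes. *Frmd5* had 50 UMIs over the 3 libraries of Cd8a-only T cells and 0 in Cd8b1+ cells, at least 6.89-fold higher with a floor of 3 counts over the group (edgeR adjusted p = 0.00831, and 0.0684 without control). Of 14 cytotoxic granule genes 2 rose, the granzymes above, and *Gzmk* fell by 2.07 (edgeR adjusted p = 0.0267), a call lost without KO (0.106) and without control (0.114). Of 12 cytokine receptors 1 fell, of 10 cytokines and chemokines 1 rose (*Fgl2*), of 22 interferon-induced genes 1 fell and of 18 genes of MHC class I and loading 1 fell. Without the deep barcodes 3 of 14 cytotoxic granule genes rose and 1 fell, and 2 of 17 transcription factors rose and 2 fell. In the same fit 1 of 12 cytokine receptors rose and 1 fell, and 2 of 10 cytokines rose and 1 fell. The lists of cell cycle, cytoskeleton and glycolysis genes held no call by edgeR, among 19, 24 and 20 tested. Without the deep barcodes 2 of 16 cell cycle genes rose and 1 of 20 glycolysis genes fell. *Trac* did not differ past the threshold (log2 0.02, SE 0.17, edgeR adjusted p = 0.992).

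**Figure D3:**
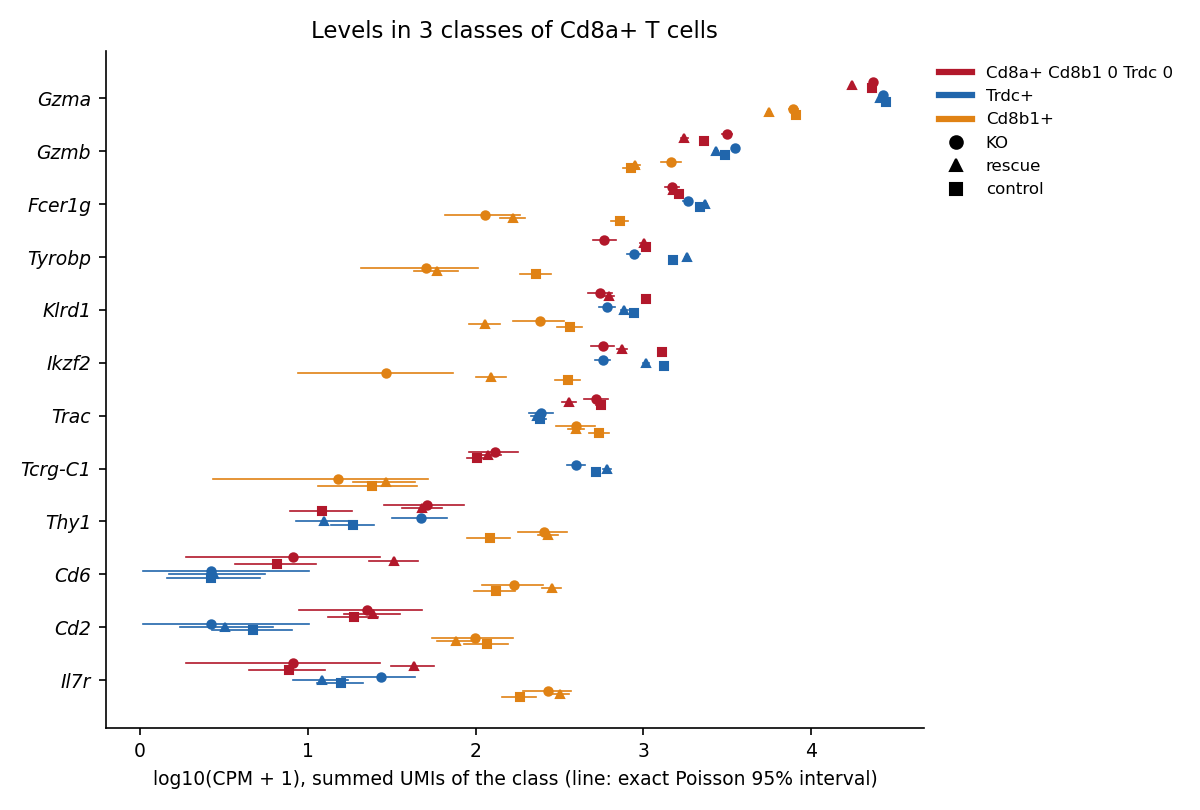
Levels of 12 genes (rows) in Cd8a-only T cells (red), Trdc+ cells (blue) and Cd8b1+ cells (orange) on a log10(CPM + 1) axis. Circles are KO, triangles rescue and squares control, and lines are exact 95% Poisson intervals. *Gzma* to *Ikzf2* stood near the Trdc+ cells and above the Cd8b1+ cells, and *Thy1* to *Il7r* stood below the Cd8b1+ cells.

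Against Trdc+ cells few genes differed: 44 of 7861 (0.56%) rose and 7 (0.089%) fell. Without the deep barcodes 12 (0.169%) rose and 10 (0.14%) fell, and 8 and 6 genes were shared. Of the 44 that rose, 30 stood more than 2-fold higher in epithelial barcodes than in Cd8a-only T cells, among them *Sox9*, *Cd24a* and *Sdc4*. Without the control library 7 genes rose and 3 fell, and without the rescue library 69 genes rose. Without the KO library 13 fell.

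Receptor genes were among those that differed from Trdc+ cells. The classes were split on *Trdc*, itself a receptor gene, so differences in the other receptor chains are not independent of that split. *Trac* was at 524, 359 and 556 CPM in KO, rescue and control Cd8a-only T cells, against 245, 233 and 242 CPM in Trdc+ cells (log2 1.02, SE 0.16, edgeR adjusted p = 0.0102). *Tcrg-C1* was at 129, 118 and 102 CPM, against 397, 609 and 519 CPM (log2 -2.13, SE 0.18, edgeR adjusted p = 0.000104). Every Cd8a-only value lay above every Trdc+ value for *Trac* and below for *Tcrg-C1*. *Cd247*, the CD3 zeta chain, fell by 0.90 (edgeR adjusted p = 0.0399), but not over cells of at most 15000 UMIs (0.0869). Its call was lost without KO, rescue or control (edgeR adjusted p = 0.08, 0.0696 and 0.611), and that of *Trac* without control (0.315). Set against Cd8b1+ cells, *Tcrg-C1* was higher in Cd8a-only T cells, by 2.20 (edgeR adjusted p = 0.000428), at 14.1, 28.3 and 23.1 CPM in Cd8b1+ cells.

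Of 15 T cell receptor signalling genes 3 rose over Trdc+ cells and 0 fell. *Cd2*, an adhesion receptor of T cells, was at 21.5, 23.6 and 17.9 CPM in Cd8a-only T cells, against 1.65, 2.23 and 3.69 CPM in Trdc+ cells (log2 2.86, SE 0.38, edgeR adjusted p = 0.00425). *Cd6* was at 7.18, 31.8 and 5.59 CPM, against 1.65, 1.78 and 1.64 CPM (log2 3.12, edgeR adjusted p = 0.00753). *Cd5*, an inhibitory coreceptor, had 0, 31 and 7 UMIs in KO, rescue and control Cd8a-only T cells and 0 in all Trdc+ cells, at least 21.2-fold higher over the group (edgeR adjusted p = 0.00425). Without rescue the calls of *Cd5* and *Cd6* were lost (edgeR adjusted p = 0.281 and 0.423). *Ifng*, the cytokine interferon gamma, was at 25.1, 31.8 and 44.1 CPM, against 13.2, 7.57 and 7.79 CPM (log2 2.17, SE 0.44, edgeR adjusted p = 0.0399), and its call was lost without KO (0.054) and without control (0.511). *Cd44*, an adhesion receptor of activated T cells, rose by 2.00 (edgeR adjusted p = 0.00753; 0.191 without control), and *Kit* and *Spp1* fell by 1.37 and 1.31 (0.0207 and 0.0366; 0.192 and 0.246 without control).

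Of 14 cytotoxic granule genes 0 rose and 0 fell against Trdc+ cells, with a median of -0.15 (edgeR, 580 genes at an unadjusted p under 0.05 over the table). *Gzma* stood at 26848, 25876 and 28078 CPM in Trdc+ cells, above the Cd8a-only cells of the same library each time, and the difference did not pass (log2 -0.31, SE 0.09, edgeR adjusted p = 0.208). For *Gzmb* the difference was -0.36 (SE 0.13, edgeR adjusted p = 0.38), for *Fcer1g* -0.42 (SE 0.33, 0.973) and for *Tyrobp* -0.64 (SE 0.27, 0.588). Of 15 NK-type genes 1 rose, *Klrk1*, the gene of NKG2D (edgeR adjusted p = 0.016), a call lost without control (0.448). It was too low to be tested without rescue or without the deep barcodes. Of 22 interferon-induced genes 2 rose, *Ifitm2* and *Ifitm3*, and none of 19 rose over cells of at most 15000 UMIs. In rescue 97.4% and in control 84.5% of the *Ifitm3* UMIs of Cd8a-only T cells lay in 3 deep barcodes. The other 10 lists held no call by edgeR. A p that misses the threshold does not show equal levels. DESeq2 called none of *Gzma*, *Gzmb*, *Fcer1g* and *Tyrobp* either.

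Conventional surface genes were detected in only part of the Cd8a-only T cells, and whether they were spread evenly was not tested. A UMI of *Thy1*, *Cd5*, *Cd6*, *Cd2* or *Cd28* was found in 16 of 47 KO cells (34.0%, 20.9 to 49.3), 46 of 139 rescue cells (33.1%, 25.4 to 41.6) and 37 of 314 control cells (11.8%, 8.43 to 15.9). At 1000 UMIs the shares were 6.38%, 12.2% and 3.50%. In Trdc+ cells they were 24.7%, 6.57% and 9.48% at full depth, in Cd8b1+ cells 91.3%, 95.1% and 73.1%, and in epithelial barcodes 0.442%, 2.20% and 1.42%. Within the limit of 15000 UMIs, *Gzma* in cells with such a UMI was at 25434 CPM (24381 to 26521) in KO, 9427 CPM (9028 to 9838) in rescue and 16871 CPM (16301 to 17457) in control. In cells without one it was at 28322 CPM (27461 to 29202), 34128 CPM (33621 to 34641) and 27621 CPM (27343 to 27902). *Gzma* was thus lower in cells with such a UMI in each library, and the gap was widest in rescue. With the deep barcodes the KO values were 25434 and 22235 CPM, the other way round, because 1 deep barcode lay in the set without such a UMI, and the rescue values were 4558 and 27071 CPM. In rescue *Il7r* had 46 UMIs in cells with a surface UMI and 0 in those without. In control it had 12 and 0 UMIs, and in KO 1 and 1. These sets were split after seeing the data and were not tested.

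Between KO and control, *Gzma* of the Cd8a-only T cells was at like levels, *Gzmb* was higher in KO and several other leading genes were lower, short of a 2-fold difference. *Gzma* was at 23225 CPM (22663 to 23798) in KO and 23006 CPM (22784 to 23229) in control, a ratio of 1.01 (0.983 to 1.04). *Gzmb* was at 3142 CPM (2937 to 3357) in KO and 2283 CPM (2213 to 2354) in control, a ratio of 1.38 (1.28 to 1.48). *Fcer1g* had a ratio of 0.904 (0.814 to 1.00). *Klrd1* was at 553 CPM in KO and 1030 CPM in control, a ratio of 0.537 (0.452 to 0.633), and its log2 ratio was -0.89, or -1.03 with equal weight per cell. *Tyrobp* was at 585 and 1042 CPM, a ratio of 0.562 (0.476 to 0.659). *Ccl5* was at 12894 and 18089 CPM, a ratio of 0.713 (0.688 to 0.738). *Cd160*, a receptor of NK type, was past 2-fold at 345 CPM in KO and 110 CPM in control (log2 1.56). Of 1395 genes with a mean of at least 100 CPM, 123 (8.82%) were more than 2-fold higher in KO on the log2(CPM + 10) scale, which understates low genes, and 145 (10.4%) were more than 2-fold lower. Over cells of at most 15000 UMIs 64 (4.45%) were higher and 140 (9.74%) lower, with 47 and 119 shared. Scaling to UMIs other than mitochondrial, ribosomal and epithelial-high genes gave 148 higher and 132 lower of the same 1395 genes. Which direction held more genes thus depended on the scaling. Of the 123 higher genes, 74 were more than 2-fold higher again in epithelial barcodes of KO.

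Heat shock genes were higher in KO. *Hspa1a*, an inducible HSP70 chaperone, was at 862 CPM (756 to 978) in KO, 307 CPM (275 to 341) in rescue and 73.2 CPM (61.2 to 86.9) in control, with no overlap of intervals. The ratio of KO over control was 11.8 (9.48 to 14.7). No *Hspa1a* UMI was seen in 20 of 47 KO, 91 of 139 rescue and 293 of 314 control cells. The sums thus rest on part of the cells, and the intervals leave out the spread between cells. *Hspa1b*, the paralogue of *Hspa1a*, was at 366, 222 and 37.4 CPM in KO, rescue and control, and KO over control was 9.78 (7.12 to 13.5). UMIs of these near-identical copies may be split between them. *Dnajb1*, their HSP40 partner, was at 384, 179 and 127 CPM (log2 1.53 for KO over control). Excluding the deep barcodes left *Hspa1a* at a log2 of 3.45 and *Hspa1b* at 3.00, beside 3.39 and 2.99 with all cells.

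Several regulators were lower in KO. *Foxo1*, a transcription factor of T cell quiescence, was at 86.2 CPM (55.2 to 128) in KO and 559 CPM (525 to 595) in control, a ratio of 0.154 (0.0983 to 0.231). *Nr3c1*, the glucocorticoid receptor, was at 101 CPM (66.8 to 145) in KO and 603 CPM (567 to 640) in control (log2 -2.47). *Zeb1*, a zinc finger repressor, was at 50.3 CPM in KO and 431 CPM in control (log2 -2.87). In rescue these genes stood at 69.9, 79.9 and 49.0 CPM, close to KO and far below control. The other genes among the 10 lowest were *Gm26740* (log2 -3.86), *Tgif1* (-2.83), *Braf* (-2.78), *RP23-299D2.2* (-2.78), *Tcp11l2* (-2.65), *Emb* (-2.40) and *Kdm2b* (-2.39), and without the deep barcodes all 10 stayed between -2.34 and -3.93.

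Among the 10 highest genes several had most of their KO UMIs in 1 deep barcode, and 8 of the 10 stayed past 2-fold without it. The screen that leaves out genes higher in epithelial barcodes was run with that barcode in the sums and was not repeated without it. The part of epithelial RNA in these genes was not tested. *Ada*, adenosine deaminase, was at 3727 CPM in KO and 11.2 CPM in control, and at 464 and 12.2 CPM without that barcode, which held 89.7% of its KO UMIs. The barcode held 95.1% of the KO UMIs of *Sprr2a3*, 85.5% of *Cybrd1* and 91.8% of *Cst6*, and their log2 ratios without it were 3.16, 3.56 and 1.35. *Anxa10* had 105 UMIs in KO and 0 in control, at least 225-fold higher. Without the barcode it had 18 and 0 UMIs, at least 40.4-fold higher. *Oasl1* stood at 1.44, beside 3.61 with the barcode, while *2210407C18Rik* and *Tubb2a* were no longer past 2-fold (0.59 and 0.80).

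**Figure D4:**
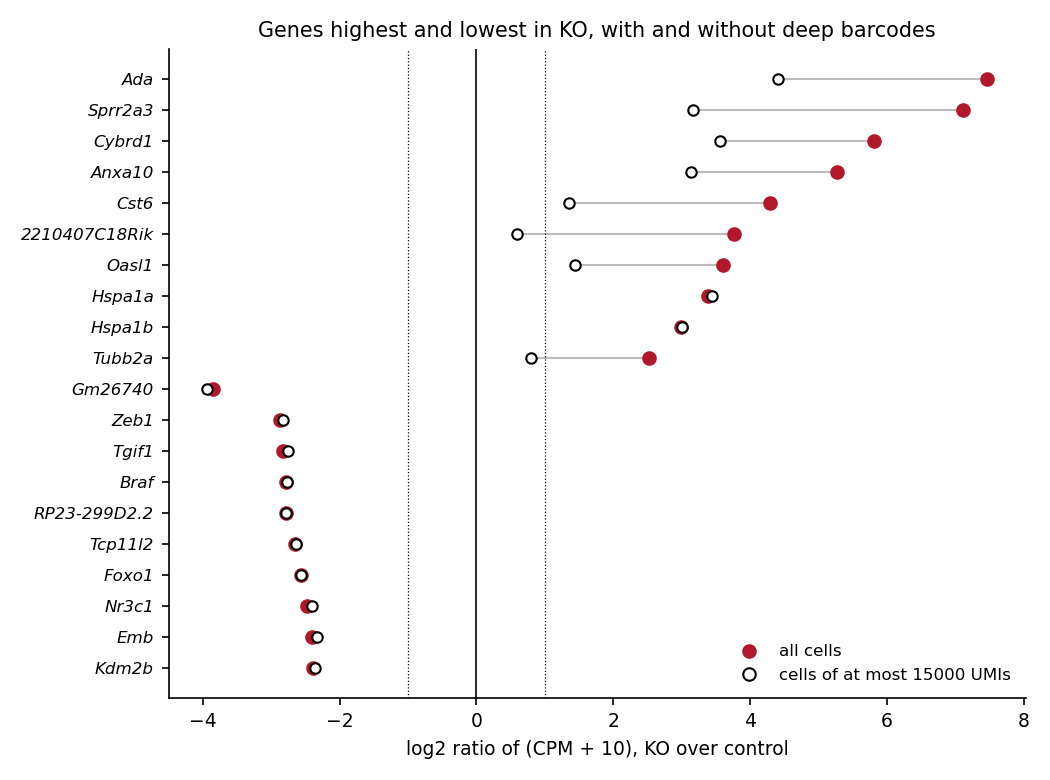
The 10 highest and 10 lowest genes of Cd8a-only T cells in KO over control (x axis, log2 ratio of CPM + 10), with all cells (filled) and with cells of at most 15000 UMIs (open). Dotted lines mark 2-fold. *Hspa1a*, *Hspa1b* and the 10 lowest genes kept their place, while *Ada* moved to 4.41, beside 7.46 with all cells.

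By gene list, 0 of 11 cytotoxic granule genes were more than 2-fold higher in KO than in control and 2 were lower, with a median log2 of -0.07 beside 0.02 over all genes. These were *Serpinb9*, at 111 CPM in KO and 281 CPM in control, and *Serpinb6b*, at 115 and 405 CPM, both inhibitors that shield cells from their own granzymes. Of 8 NK-type genes 1 was higher and 0 were lower. Cytokine receptors had 0 of 5 higher and 3 lower, with a median of -1.50. *Ifngr1*, a chain of the interferon gamma receptor, was at 323 CPM in KO and 1132 CPM in control, *Il21r* at 180 and 676 CPM, and *Tnfrsf1b* at 71.8 and 221 CPM. Of 19 immediate early genes 3 were higher, all heat shock genes, and 8 were lower, with a median of -0.60, or 3 higher and 3 lower of 16 without the deep barcodes.

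Other lists showed less. Of 7 receptor chain genes 1 was higher (*Tcrg-C2*), and of 7 receptor signalling genes 1 was higher, *Ptpn6*, a phosphatase that restrains signalling, at 205 CPM in KO and 78.8 CPM in control. Of 19 cytoskeleton genes 2 were higher and 0 lower: *Coro1a*, an actin regulator, at 905 and 320 CPM, and *Actb*, beta-actin, at 6474 and 2472 CPM. Of 10 residency genes 1 was lower, the lipid receptor gene *Gpr55*, and of 13 genes of MHC class I none passed 2-fold. Of 10 glycolysis and fatty acid genes 5 were higher, and 2 without the deep barcodes, *Fabp1* and *Fabp2*, which are enterocyte genes. Of 4 transcription factors *Ikzf2* was lower, at 575 CPM in KO and 1287 CPM in control. Of 10 activation and checkpoint genes 1 was lower (*Nr4a3*), and of 4 cell cycle genes 2 were higher (*Stmn1*, *Tubb5*) and 1 lower (*Cenpa*). None of 6 cytokines and chemokines or of 3 interferon-induced genes passed 2-fold, but without the deep barcodes 2 of 5 cytokines and chemokines did, *Xcl1* and *Ccl4*, both higher in KO (log2 1.07 and 1.02, beside 0.99 and 0.94 with all cells). None of 10 recirculation genes was high enough to be compared.

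Many of these genes also differed between KO and control in the other T cell classes. Over cells of at most 15000 UMIs, 88 of 131 genes lower in Cd8a-only T cells and measured in Trdc+ cells were also more than 2-fold lower there, and 43 of 57 higher genes were also higher. In Cd8b1+ cells it was 87 of 121 and 32 of 49. None was past 2-fold the other way in either class. The share past 2-fold over all genes of those classes was not counted, so these overlaps have no baseline beside them. All classes came from the same KO and control libraries, and the part of a library-wide shift was not tested. *Foxo1* had a log2 of -2.56 in Cd8a-only T cells, -2.59 in Trdc+ cells and -3.26 in Cd8b1+ cells, beside -0.21 in epithelial barcodes. *Hspa1a* had 3.39, 4.16 and 4.45, beside 1.36 in epithelial barcodes. *Tgif1*, a repressor of TGF-beta signalling, was further down in Cd8a-only T cells, at -2.83, than in the others, at -1.22 and -1.35. No difference between classes in this contrast was tested.

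**Figure D5:**
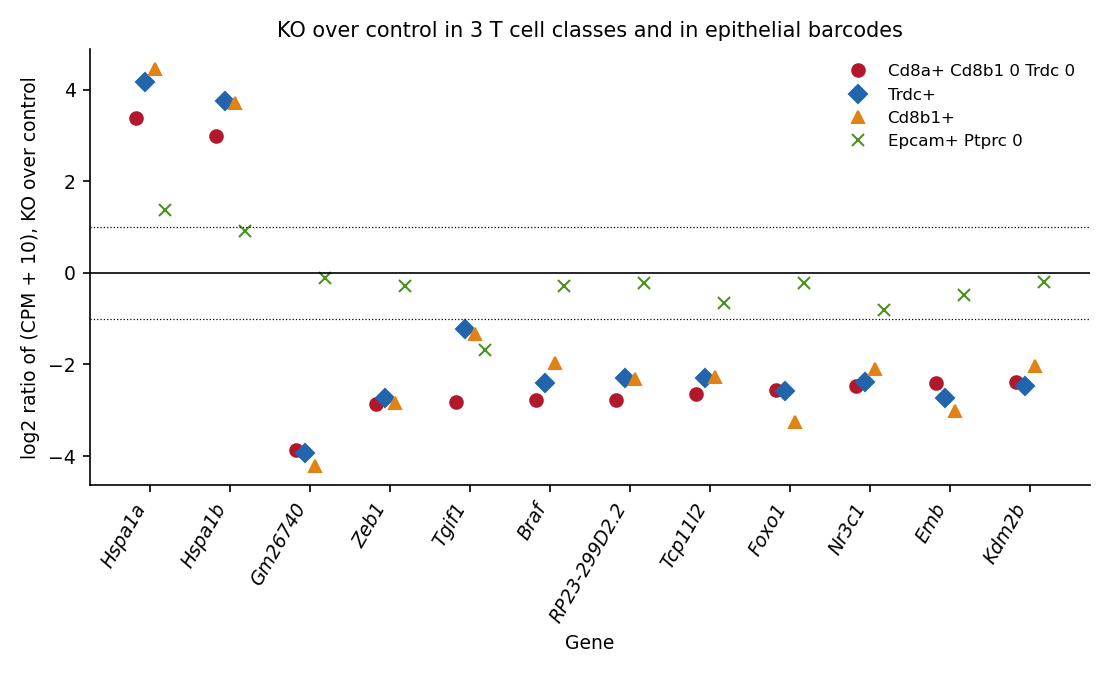
KO over control (y axis, log2 ratio of CPM + 10) for 12 genes in Cd8a-only T cells, Trdc+ cells, Cd8b1+ cells and epithelial barcodes with *Epcam* and no *Ptprc*. Each point is 1 ratio between 2 libraries, and dotted lines mark 2-fold. *Foxo1* stood at -2.56, -2.59 and -3.26 in the T cell classes and at -0.21 in epithelial barcodes.

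Between rescue and KO the Cd8a-only T cells differed in fewer genes: 42 of 1388 (3.03%) were more than 2-fold higher in rescue and 91 (6.56%) lower. Over cells of at most 15000 UMIs it was 29 (2.08%) and 38 (2.73%) of 1393. *Zfp36l2*, an RNA-binding protein that destabilises messages, was at 445 CPM (406 to 486) in rescue and 147 CPM (106 to 200) in KO, a ratio of 3.02 (2.19 to 4.26). *Fos* was at 436 and 169 CPM, a ratio of 2.59 (1.91 to 3.57). *Hspa1a* was at 307 CPM in rescue and 862 CPM in KO (log2 -1.46). *Gzmb* was at 1757 and 3142 CPM (log2 -0.84), or 2655 and 3739 CPM without the deep barcodes (-0.49). Of 10 cytotoxic granule genes 0 were past 2-fold in either direction.

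Other large differences between rescue and KO came with technical features. *Gm8730*, a pseudogene, was at 12.7 CPM in rescue, 894 CPM in KO and 787 CPM in control, and the file header of the rescue library names another Cell Ranger version than those of KO and control. Whether that version bears on it was not tested. *Agr2*, *Clca3b*, *Slc12a2* and *Cps1*, epithelial genes among the 10 highest in rescue, had 98.7%, 98.3%, 97.5% and 96.9% of their rescue UMIs in 3 deep barcodes, and the log2 ratio of *Agr2* was 4.04 with them and -1.09 without. *Spink4* likewise had 2.66 and -0.71. *Hdgf*, *Snrpf* and *Serinc3* fell short of 2-fold without the deep barcodes (log2 0.53, 0.65 and 0.17). Without the deep barcodes 3 of the 10 highest genes stayed past 2-fold, and so did 7 of the 10 lowest. Among the lowest *Sprr2a3* stood at -6.92, or -2.84 without, *Ada* at -5.56, or -2.18, and *Oasl1* at -4.16, or -1.81. *Cybrd1* and *Anxa10* had 0 UMIs in rescue, and 25 and 18 UMIs in KO without the deep barcodes, at least 26.3-fold and 18.9-fold lower. *Cst6* and *Tubb2a* fell short of 2-fold without the deep barcodes, at -0.85 and -0.80. *Lgals3* stood at -3.33, or -1.25 without the deep barcodes, and *Gm26917* at -2.32, or 0.00.

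The comparison of rescue with control shares its control library with that of KO. Of 1376 genes, 73 (5.31%) were more than 2-fold higher in rescue and 141 (10.2%) lower. Over cells of at most 15000 UMIs it was 30 (2.11%) and 117 (8.22%) of 1424. Scaling to UMIs other than mitochondrial, ribosomal and epithelial-high genes gave 102 higher and 123 lower of the same 1376 genes, and shifted them by a median of 0.12 on the log2 scale. With the filter applied to the rescaled values as well, which let in 2477 genes, 204 were higher and 185 lower. *Hspa1a* was at 307 CPM (275 to 341) in rescue and 73.2 CPM (61.2 to 86.9) in control, a ratio of 4.19 (3.41 to 5.17). *Foxo1* was at 69.9 CPM (55.1 to 87.3) and 559 CPM (525 to 595), a ratio of 0.125 (0.0979 to 0.158). *Ifrd1* (log2 -2.92), *Crem* (-2.87), *Nr3c1* (-2.77), *Cables1* (-2.72) and *Trf* (-2.70) were further genes among the 10 lowest. *Crem*, a cyclic AMP response factor, was at 128 CPM in rescue and 996 CPM in control.

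By gene list, cytokine receptors had 0 of 5 higher than in control and 3 lower, with a median log2 of -1.29, or 2 lower without the deep barcodes. Of 10 activation and checkpoint genes 3 were lower and 0 higher. Of 11 cytotoxic granule genes 0 were higher and 2 lower, *Serpinb9* and *Serpinb6b*, at 79.9 and 134 CPM in rescue, against 281 and 405 CPM in control. *Gzma* was at 17573 CPM in rescue and 23006 CPM in control, or 26563 and 26267 CPM without the deep barcodes. *Thy1* was at 47.2 CPM in rescue and 11.2 CPM in control, and *Cd160* at 329 and 110 CPM. Of the 10 highest genes only 3 stayed past 2-fold without the deep barcodes. *Agr2*, *Clca3b* and *Ifitm3* were no longer higher without them (log2 -0.48, -0.34 and -0.02), and *Hspa1b* stood at 2.48, beside 2.29 with them.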

How the data were processed

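Droplet 3' single-cell RNA libraries of intestinal crypts were measured, 1 per genotype. The deposited values are raw UMI counts per gene and barcode, made by the authors with Cell Ranger, version 1.3.0 per the submitters' processing notes and versions 3.0.2 (KO, control) and 3.1.0 (rescue) per the file headers. No label or file header names the genome build (not given in the sources used here). Gene coordinates are from GENCODE, where 98.8% of the gene identifiers were found (build GRCm38).

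UMIs were summed per library and cell class (Python 3.11.15, numpy 2.4.6, scipy 1.17.1, pandas 2.3.3). Between libraries, genes with a mean of at least 100 CPM and at least 20 UMIs over both libraries were compared on log2(CPM + 10), leaving out 7 rule genes. Past 2-fold was counted, with no test. Intervals are exact Poisson (levels), Clopper-Pearson (shares) and conditional exact binomial (ratios). They cover counting error only, and barcodes of 1 library are not replicates. Classes were compared with the edgeR quasi-likelihood test (version 4.0.16, R 4.3.3) on 9 sums, 3 classes in each of 3 libraries, with the library as block, TMM scaling, filterByExpr and Benjamini-Hochberg adjustment at 0.05. This pairing comes from the design, since the classes come from the same library, though in rescue they differed in sex-linked RNA. DESeq2 1.42.0 was an alternative. Both steps were tested on simulated data.

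Named genes were, between libraries, the 10 highest and 10 lowest whose interval excluded a ratio of 1, without mitochondrial, ribosomal, immunoglobulin, sex-linked and rule genes and genes more than 2-fold higher in epithelial barcodes (*Epcam* at least 1 UMI, *Ptprc* 0). Between classes they were the 10 highest and 10 lowest past the threshold with the same sign in 3 libraries, and then the extremes of 16 gene lists and a fixed set. Other genes of a list that passed are named where its count is 8 or fewer, except a few that are not reported here. The members and lists were chosen with earlier results of these data known. Doublets were kept in the sums, and removing the highest doublet scores (0.8% per 1000 cells, scikit-learn 1.9.0, 2 simulated doublets per cell) was an alternative, as were other filters, scalings, mitochondrial limits and thinning to 1000 UMIs.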

Additional observations from a re-analysis of the deposited data

Results flagged for a closer look

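In the sums over all cells, 2 genes past 2-fold in Cd8a-only T cells were past 2-fold in the opposite direction in another T cell class. *Smim24* had a log2 ratio of rescue over KO of -1.22 in Cd8a-only T cells and 1.05 in Trdc+ cells. *Tff3*, a secreted peptide of goblet cells, had a log2 ratio of rescue over control of 1.23 in Cd8a-only T cells and -1.02 in Cd8b1+ cells. Over cells of at most 15000 UMIs neither gene was, and 1 other was: *Kcnq1ot1*, chosen after its values were seen, had a log2 ratio of rescue over KO of 1.17 in Cd8a-only T cells and -1.12 in Cd8b1+ cells. No such difference between classes was tested.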

How the results depend on the processing

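Thinning gave a rescue share of 22.4%. Genes past 2-fold between KO and control numbered 236 higher and 243 lower from a mean of 50 CPM, 65 and 79 from 200 CPM, and 636 and 652 with no filter. Scaling without mitochondrial, ribosomal and epithelial-high genes gave 253 higher and 204 lower, and also raised the genes tested to 2471. Of the same 1395 genes as in the main comparison it gave 148 higher and 132 lower. The higher genes were 71 with equal weight per cell, 72 without the highest doublet scores, 203 in cells with alpha or beta and no gamma constant UMI, and 64 in cells of at most 15000 UMIs. Between rescue and KO they numbered 104 higher and 177 lower from 50 CPM, 21 and 46 from 200 CPM, 642 and 477 with no filter, 113 and 160 under the other scaling, and 300 and 243 in cells without gamma constant UMIs. Thinning gave 93 higher. Lower genes were 44 with equal weight, 55 at up to 10% mitochondrial UMIs, 49 without doublet scores and 38 at up to 15000 UMIs. Between rescue and control they numbered 149 higher and 232 lower from 50 CPM, 33 and 67 from 200 CPM, 464 and 385 with no filter, and 305 and 300 in cells without gamma constant UMIs. Higher genes were 204 under the other scaling, 40 with a pseudocount of 50 CPM, 29 with equal weight, 46 at up to 10% mitochondrial UMIs and 30 at up to 15000 UMIs.

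Against Trdc+ cells, genes that rose and fell numbered 23 and 1 with DESeq2, 210 and 69 with no filter, 74 and 18 with only 2 classes, and 13 and 4 at up to 10% mitochondrial UMIs. Thinning gave 8 rising genes and the limit of 15000 UMIs 12. Without the library block edgeR called 0 and 0, with 164 genes at an unadjusted p under 0.05. Leaving out 1 library gave 7 to 69 rising and 3 to 13 falling. Against Cd8b1+ cells they numbered 253 and 153 with no filter, 6 and 4 with no library block, 54 and 43 after thinning, 221 and 196 at up to 15000 UMIs, and 49 to 92 and 29 to 61 without 1 library. No paired analysis was possible because each genotype had 1 library, so the block applies to the class tests alone.

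Ratios that changed sign were those of *2210407C18Rik* (-2.76) and *Cst6* (-0.43) for KO over control and *Cst6* (0.81) for rescue over KO in cells without gamma constant UMIs. For rescue over KO, *Spink4* was at -0.15 with equal weight, -0.625 at up to 10% mitochondrial UMIs and -0.71 at up to 15000 UMIs, *Agr2* at -1.09 at up to 15000 UMIs, and *Gm26917* at 0.043 without doublet scores. For rescue over control, *Clca3b*, *Ifitm3* and *Agr2* were at -0.92, -0.50 and -0.61 at up to 10% mitochondrial UMIs and -0.34, -0.0185 and -0.48 at up to 15000 UMIs. *Hist1h2ap* was at -0.10 and *Ifitm2* at -0.0035 at up to 10% mitochondrial UMIs, and *Ifitm2* at -0.19 after thinning. The cause was not tested. The KO set holds 47 cells, so its low genes have wide counting intervals.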

Other observations

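The rescue library held T cells with *Xist* and T cells with Y-linked RNA, and its Cd8a-only T cells are given here by that split, made after seeing the data and not tested. Cd8a-only T cells were 13.6% (8.13 to 20.9, 17 of 125) of Cd3-positive barcodes with Y-linked RNA only, and 19.2% (16.1 to 22.6, 113 of 590) of those with *Xist* only. A UMI of *Thy1*, *Cd5*, *Cd6*, *Cd2* or *Cd28* was found in 12 of 17 Cd8a-only T cells with Y-linked RNA (70.6%, 44.0 to 89.7) and in 27 of 113 with *Xist* (23.9%, 16.4 to 32.8). All 3 deep barcodes of these cells had *Xist* only, so levels are given over cells of at most 15000 UMIs. *Gzma* was at 15469 CPM (14610 to 16365) with Y-linked RNA and 28318 CPM (27899 to 28742) with *Xist*, or 17621 CPM with *Xist* including the deep barcodes. *Thy1* was at 242 CPM (146 to 379) with Y-linked RNA and 37.5 CPM (23.8 to 56.2) with *Xist*, and *Hspa1a* at 1085 CPM (867 to 1341) and 373 CPM (326 to 425). *Foxo1* was low in both, at 25.5 CPM (3.09 to 92.2) with Y-linked RNA and 103 CPM (78.9 to 131) with *Xist*, beside 559 CPM over all control cells, which had Y-linked RNA in 83.4% of cells.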
